A study of Mus musculus with 7 samples.

Results

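The genes described here are 37 genes of cholesterol and fatty acid metabolism that surround the sterol regulatory element binding proteins (SREBP). They were named by symbol from the known pathway and picked out of the 53656 gene rows of each library. By role they comprise 5 regulators, 17 enzymes of cholesterol synthesis, 2 sterol carriers, 9 enzymes of fatty acid synthesis and 4 genes of cholesterol efflux and storage. All but Fads2 passed the low-count filter, so 36 were among the 15896 genes tested. Messenger RNA was measured by RNA-seq in 7 libraries of OT1 cells, mouse CD8 T cells whose transgenic receptor recognises a peptide of ovalbumin. They had been sorted as CD8 and CD45.1 positive from tumours of B16-OVA-GP61, a melanoma line that carries ovalbumin and the GP61 epitope. In 4 libraries (replicates 1 to 4) the tumour had no SMARTA CD4 T cells, whose transgenic receptor sees GP61. In 3 libraries (replicates 1 to 3) SMARTA cells were present. Both groups share the tumour line, the OT1 receptor and the sort. Host strain, age, time of harvest and the CD4 T cells that hosts hold of their own are not given in the sources used here. Whether each library stands for its own animal is not stated either. The p-values thus rest on variation among these 7 libraries, some of which may be technical.

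Cells control their sterol content through membrane-bound transcription factors. When sterol in the endoplasmic reticulum is low, SCAP carries SREBP to the Golgi, where proteases free the part that enters the nucleus; INSIG proteins hold the complex back when sterol is plentiful. The factor encoded by Srebf2 mainly drives cholesterol synthesis and uptake, that of Srebf1 mainly fatty acid synthesis. Liver X receptors, among them the product of Nr1h2, respond to oxidised sterols and drive export through ABCA1 and ABCG1. T cells that divide after activation raise lipid synthesis through this system, since new membrane needs both lipids.

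Libraries held 38092722 to 49438357 counts, of which the 37 genes took 0.239% to 0.313%. Levels are given as CPM, counts scaled to the size of the library. Zero counts allow a level of up to 0.0607 to 0.0788 CPM (3 counts), by counting error alone. Cd8a lay between 1028 and 1948 CPM and Cd3e between 1051 and 1820 CPM, against 0.65 to 8.48 CPM for Cd4. The 4 CD4 T cell genes Cd4, Cd40lg, Foxp3 and Zbtb7b summed to 39.7 to 96.2 CPM without and 120.5 to 140.3 CPM with SMARTA. Cd40lg and Zbtb7b were higher in every library with SMARTA, and Cd4 and Foxp3 overlapped between groups. Of a dendritic cell list of 6 genes, Itgax was at 38.6 to 421 CPM and made up 87.7% of the sum. Xcr1 was at 12.2 to 31.4 CPM. Siglech reached at most 5.92 CPM, Cd209a 1.21, Clec9a 0.59 and Flt3 0.37. What part other cells have in the libraries was not tested. Replicate 1 with SMARTA stood apart by erythroid transcripts (6 genes, 4806 CPM in sum, against 9.72 to 223 in the other libraries). Replicate 2 without SMARTA stood apart by melanoma transcripts (7 genes, 68.4 CPM in sum, against 6.70 to 16.9). In replicate 3 without SMARTA and replicate 1 with SMARTA 5 adipocyte genes summed to 149.6 and 167.6 CPM, against 4.45 to 53.5 in the others. Replicates 1 and 2 without SMARTA held neutrophil transcripts (6 genes, 35.8 and 29.99 CPM in sum, against 0.73 to 3.80). S100a8, S100a9, Cxcr2 and Retnlg were higher in those 2 libraries than in all others. Csf3r did not follow, at 4.09, 0.02, 2.11 and 1.73 CPM in replicates 1 to 4 without SMARTA, and Ly6g was at most 0.13 CPM.

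None of the 36 tested genes changed with SMARTA by the edgeR quasi-likelihood test at a Benjamini-Hochberg adjusted p under 0.05 over all genes. Of all genes tested, 1.63% were called lower and 1.52% higher. At an unadjusted p under 0.05 there were 7 members lower and 4 higher, 11 of 36, beside 18.6% of all genes in either direction. The groups did not overlap for 9 members, 7 of them lower and 2 higher with SMARTA, beside 19.2% of all genes. DESeq2 called Idi1, Cyp51 and Tmem97 lower (3 of 36, beside 5.8% of all genes) and Elovl5 and Elovl6 higher (2 of 36, beside 5.18%). limma-voom called no member, beside 3.33% of all genes. The values below therefore describe levels and their spread, and a missing call does not show that a level was the same in both groups.

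**Figure D1:**
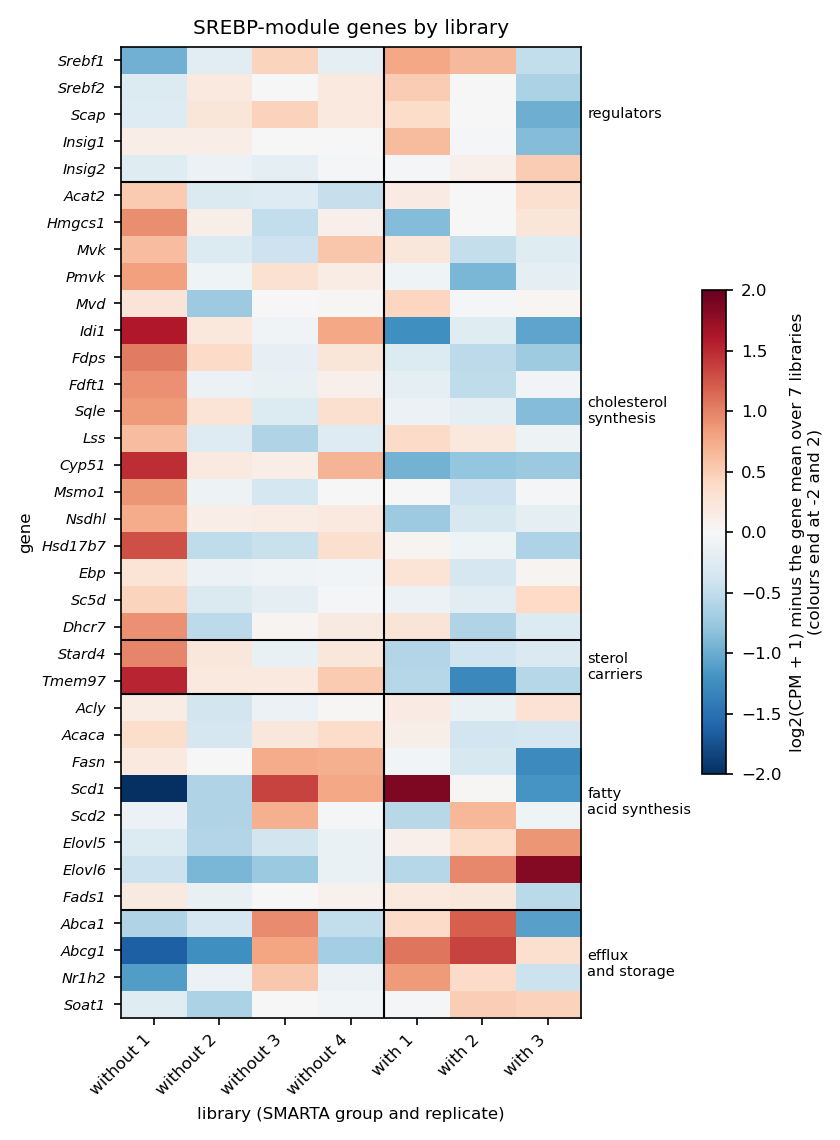
Level of each of the 36 tested genes (rows, by role) in each library (columns), as log2(CPM + 1) minus the gene's mean over the 7 libraries. Red is above and blue below that mean; replicate 1 without SMARTA is the highest library for 15 of 17 cholesterol synthesis genes.

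The roles differed in the direction of their members. Of 17 cholesterol synthesis genes 12 had a negative log2 fold change (with minus without SMARTA), and their median was −0.41. Both sterol carriers were negative, with a median of −1.18. Of 8 tested fatty acid synthesis genes 5 were positive (median 0.10, and −0.04 with scaling by library totals alone, which moved the median of all genes to −0.16). All 4 genes of efflux and storage were positive (median 0.59). The 5 regulators had a median of −0.01 and all genes tested a median of 0.00, with 50.2% negative. Without replicate 1 with SMARTA the medians were −0.61 for cholesterol synthesis, −1.23 for the carriers, −0.01 for fatty acid synthesis, 0.71 for efflux and storage and −0.33 for the regulators. Without replicate 2 lacking SMARTA the same medians were −0.60, −1.28, −0.0016, 0.46 and 0.05. Over all 7 fits that leave out a library the fatty acid synthesis median ran from −0.01 to 0.29 and that of the regulators from −0.33 to 0.20, so neither had a stable sign. These are descriptions of genes that vary together, with no test of a list. In a bulk sample, fewer cells that express a gene and less transcript per cell cannot be told apart.

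**Figure D2:**
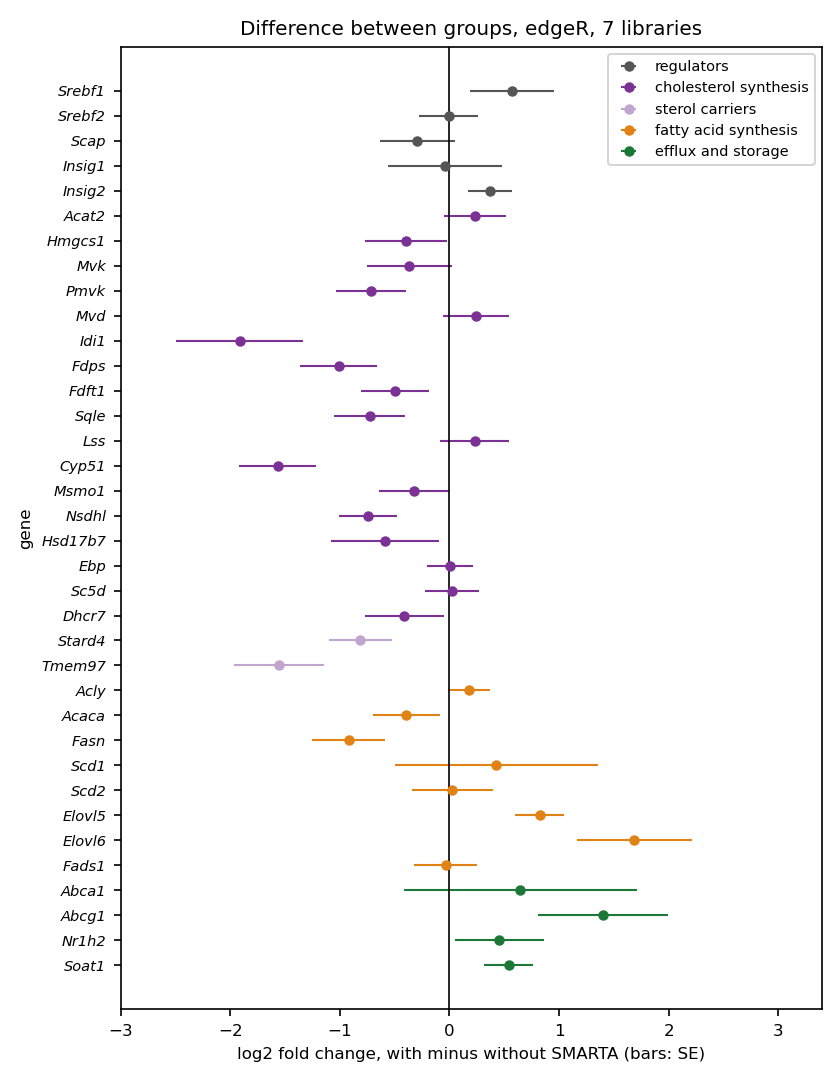
Log2 fold change, with minus without SMARTA, of each tested gene (points) with its standard error (bars) from the edgeR fit of 7 libraries; colours mark the roles. Idi1, Cyp51 and Tmem97 lie farthest to the left and Elovl6 and Abcg1 farthest to the right.

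Cyp51, the lanosterol demethylase, was the cholesterol synthesis gene with the smallest p. It lies on chromosome 5 from 4081145 to 4104746 (GRCm38). Its level was 181.9, 73.6, 71.2 and 104.1 CPM in replicates 1 to 4 without SMARTA and 33.0, 37.4 and 38.5 CPM with SMARTA. The 3 libraries with SMARTA lay close together and below all others, while the libraries without SMARTA spread widely around a high replicate 1. The fold change was 2.96 towards lower levels with SMARTA (log2 −1.57 ± 0.35, SE; 107.7 ± 51.7 against 36.3 ± 2.93 CPM, mean ± SD, n = 4 and 3; edgeR adjusted p = 0.0519). With 1 library left out the log2 value ran from −1.72 to −1.23 and the edgeR adjusted p from 0.0543 to 0.156, so that no such fit called it.

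Idi1, which isomerises the isoprene unit isopentenyl diphosphate, lies on chromosome 13 from 8885501 to 8892451. It was at 15.8, 5.44, 4.25 and 8.44 CPM without SMARTA and at 1.38, 3.69 and 1.68 CPM with SMARTA. The groups did not overlap, though replicate 3 without and replicate 2 with SMARTA were near each other. The log2 fold change was −1.92 ± 0.58 (SE; edgeR adjusted p = 0.118). Fdps, which joins isoprene units into farnesyl diphosphate, was at 24.7, 15.2, 10.1 and 13.8 CPM without and at 9.37, 7.69 and 6.64 CPM with SMARTA. Its log2 fold change was −1.01 ± 0.35 (edgeR adjusted p = 0.171). Nsdhl, a sterol dehydrogenase that acts after Cyp51, was at 47.8, 31.0, 31.3 and 32.6 CPM without and at 16.7, 22.4 and 24.9 CPM with SMARTA (−0.74 ± 0.27; edgeR adjusted p = 0.178). These 3 genes and Cyp51 were the 4 of 17 with an unadjusted p under 0.05. In all 4 every library with SMARTA lay below every library without. Of all genes tested, 18.6% had such a p and 19.2% had separate groups, in either direction.

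Hmgcs1, which makes HMG-CoA, was at 135.4, 77.1, 50.0 and 75.8 CPM without SMARTA and at 38.5, 70.5 and 83.7 CPM with SMARTA. The groups overlapped (log2 −0.40 ± 0.38; edgeR adjusted p = 0.647). Sqle, the squalene epoxidase, was at 67.5, 44.8, 30.4 and 46.4 CPM without and at 33.9, 31.9 and 19.7 CPM with SMARTA (−0.73 ± 0.32; edgeR adjusted p = 0.272). Only replicate 3 without SMARTA overlapped the other group. The kinase gene Pmvk had a log2 value of −0.72, the sterol reductase gene Hsd17b7 −0.59, Fdft1, whose product makes squalene, −0.50, and Dhcr7, of the last reduction, −0.41. Mvk, the mevalonate kinase, had −0.37 and Msmo1, a sterol methyl oxidase, −0.33. The other 5 genes were positive and small: Mvd at 0.24, the thiolase gene Acat2 at 0.23, the lanosterol synthase gene Lss at 0.23, Sc5d at 0.02 and Ebp at 0.01. Ebp, a sterol isomerase, had 110.2 ± 14.8 and 110.7 ± 23.3 CPM in the 2 groups. The log2 fold changes of the 17 enzymes thus ran from −1.92 to 0.24, and none of them was called.

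The enzymes varied together within the group without SMARTA. All 17 were highest in replicate 1 of its 4 libraries, and 15 were highest there of all 7. The 2 others, Mvd and Ebp, were highest in replicate 1 with SMARTA. Summed over the 17 genes, levels were 1331, 760, 664.5 and 811.5 CPM without and 665.8, 583 and 638 CPM with SMARTA. By library totals, the range with SMARTA began below and ended just above the lowest library without SMARTA. The group means were 891.8 and 629 CPM by library totals. Scaled by TMM, as the single genes are, they were closer, at 852.5 and 670.8 CPM. Without replicate 1 lacking SMARTA the median log2 fold change of the 17 genes was −0.14, and without any other single library it lay between −0.61 and −0.38. The summed level of 20 mitosis and replication genes was also highest in that library, with 7173, 3769, 6070 and 5756 CPM without and 1202, 1854 and 1869 CPM with SMARTA. All 20 of those genes had a negative log2 fold change. By edgeR 14 were called lower at an adjusted p under 0.05, beside 1.63% of all genes. The order of the libraries differed between the lists: replicate 3 lacking SMARTA was among the high libraries for mitosis and among the low ones for cholesterol synthesis. The neutrophil sum was also highest in replicate 1 lacking SMARTA, at 35.8 CPM. It was 29.99 CPM in replicate 2 and 2.84 and 3.80 CPM in replicates 3 and 4 of that group. What part dividing cells or neutrophils have in the sterol genes was not tested.

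**Figure D3:**
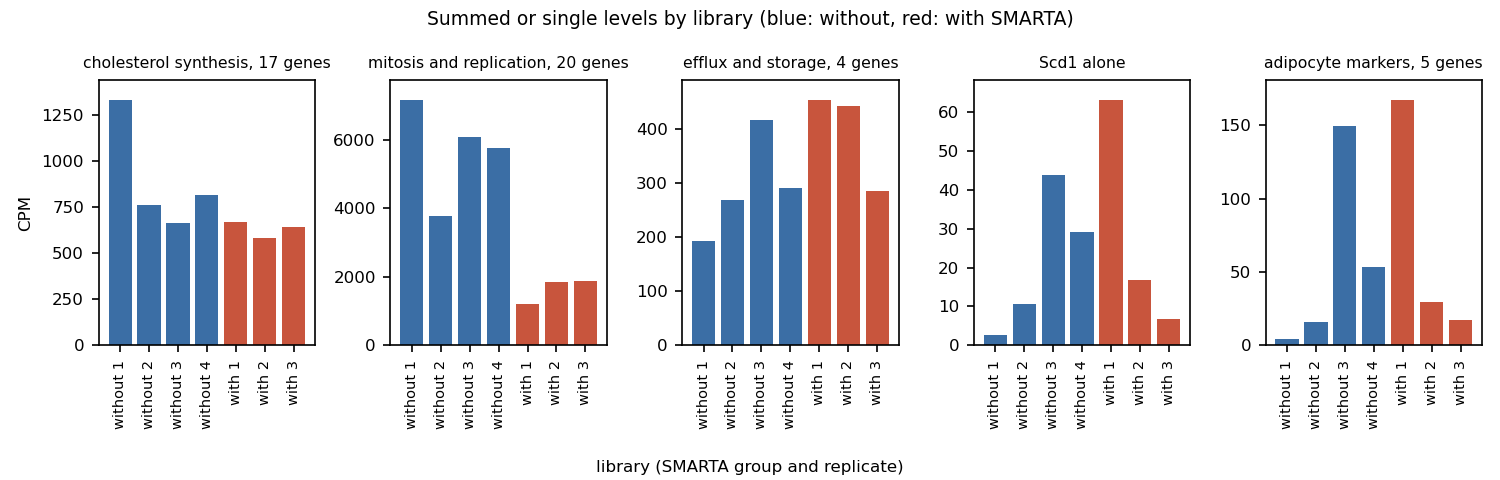
Level in each library of 3 summed gene lists, of Scd1 alone (CPM scaled by TMM) and of a summed adipocyte marker list (sums in CPM per library total); blue bars are libraries without and red bars with SMARTA. Cholesterol synthesis and mitosis genes are both highest in replicate 1 without SMARTA (1331 and 7173 CPM), and Scd1 is high where adipocyte markers are.

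Promoters are shown for the 4 members with the smallest p and for Hmgcs1, which matches the sterol element. SREBP binds promoters of its target genes with its partners NF-Y and Sp1, but binding was not measured here. RefSeq (GRCm38.p6) gave promoter windows of 250 bases before to 50 after a start for 29 of the 37 genes. Windows were searched on both strands for TCACNCCAC (a form of the sterol regulatory element), CCAAT (NF-Y) and GGGCGG (Sp1). Capitals mark every match, no matches in the printed windows overlap, and each window is written 5′ to 3′ in the direction of its gene.
Hmgcs1: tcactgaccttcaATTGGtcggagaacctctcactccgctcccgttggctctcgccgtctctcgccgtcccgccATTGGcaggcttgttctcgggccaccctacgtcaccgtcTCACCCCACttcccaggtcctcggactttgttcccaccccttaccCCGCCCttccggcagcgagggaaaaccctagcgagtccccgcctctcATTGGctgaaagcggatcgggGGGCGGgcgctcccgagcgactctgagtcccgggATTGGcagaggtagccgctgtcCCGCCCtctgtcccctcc
Cyp51: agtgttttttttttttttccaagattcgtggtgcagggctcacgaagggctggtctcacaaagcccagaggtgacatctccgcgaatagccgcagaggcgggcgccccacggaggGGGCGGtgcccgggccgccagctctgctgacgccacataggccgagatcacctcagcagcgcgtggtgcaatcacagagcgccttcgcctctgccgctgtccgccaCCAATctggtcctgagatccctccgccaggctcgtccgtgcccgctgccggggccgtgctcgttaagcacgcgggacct
Idi1: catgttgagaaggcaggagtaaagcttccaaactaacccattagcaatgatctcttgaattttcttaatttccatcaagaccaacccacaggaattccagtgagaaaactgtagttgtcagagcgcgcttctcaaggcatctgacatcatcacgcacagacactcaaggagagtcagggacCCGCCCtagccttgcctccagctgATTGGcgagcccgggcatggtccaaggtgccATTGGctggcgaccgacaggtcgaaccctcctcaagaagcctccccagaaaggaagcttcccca
Tmem97: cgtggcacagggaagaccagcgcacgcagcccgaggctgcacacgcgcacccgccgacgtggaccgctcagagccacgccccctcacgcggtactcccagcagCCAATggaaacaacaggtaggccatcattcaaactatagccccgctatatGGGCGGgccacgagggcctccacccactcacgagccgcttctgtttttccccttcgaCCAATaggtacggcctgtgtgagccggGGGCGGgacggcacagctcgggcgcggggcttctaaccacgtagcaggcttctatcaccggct
Elovl5: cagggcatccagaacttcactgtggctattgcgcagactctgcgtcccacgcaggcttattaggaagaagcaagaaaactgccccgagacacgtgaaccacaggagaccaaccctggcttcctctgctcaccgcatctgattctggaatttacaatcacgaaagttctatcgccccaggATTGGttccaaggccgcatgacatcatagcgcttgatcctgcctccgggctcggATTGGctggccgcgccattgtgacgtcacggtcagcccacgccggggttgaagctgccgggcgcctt

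The windows lie at chr13:119690101-119690400 (plus strand) for Hmgcs1, chr5:4104648-4104947 (minus) for Cyp51 and chr13:8885356-8885655 (plus) for Idi1. Those of Tmem97 and Elovl5 lie at chr11:78550686-78550985 (minus) and chr9:77917115-77917414 (plus). Hmgcs1 was the only member whose window held the sterol element in this spelling, as TCACCCCAC from base −137 to −129 counted from 0 at the start. Of all 27025 genes with a window, 1.44% held it. CCAAT was in a window of 13 of 14 cholesterol synthesis genes (92.9%), of 3 of 6 fatty acid synthesis genes of 1 of 3 efflux and storage genes, of 4 of 5 regulators and of the 1 carrier with a window, beside 41.1% of all genes. GGGCGG was in 13 of 14, 2 of 6, 2 of 3, 5 of 5 and 1 of 1, beside 38.2%. Idi1, Tmem97 and Elovl5 each held CCAAT on 2 places and Cyp51 on 1. Elovl5, higher in every library with SMARTA, and Idi1 and Tmem97, lower in each, thus had the same number of CCAAT matches. A match is a string of letters and not a measured site, and no match says only that this spelling is not in this window.

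Both sterol carriers were lower in every library with SMARTA. Tmem97, a membrane protein of the endoplasmic reticulum known as the sigma-2 receptor, lies on chromosome 11 from 78541817 to 78550777. It was at 82.2, 31.9, 31.9 and 40.6 CPM without SMARTA and at 18.4, 10.8 and 18.5 CPM with SMARTA. The lowest library without SMARTA lay well above the highest with it (log2 −1.55 ± 0.41, SE; 46.6 ± 24.1 against 15.9 ± 4.44 CPM; edgeR adjusted p = 0.0799). Stard4, a soluble carrier of cholesterol between membranes, was at 108.6, 64.0, 49.4 and 64.3 CPM without and at 36.2, 41.5 and 44.5 CPM with SMARTA (−0.81 ± 0.29; edgeR adjusted p = 0.174). Replicate 1 without SMARTA was again the highest for both. Without it the log2 values were −1.18 for Tmem97 and −0.58 for Stard4.

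**Figure D4:**
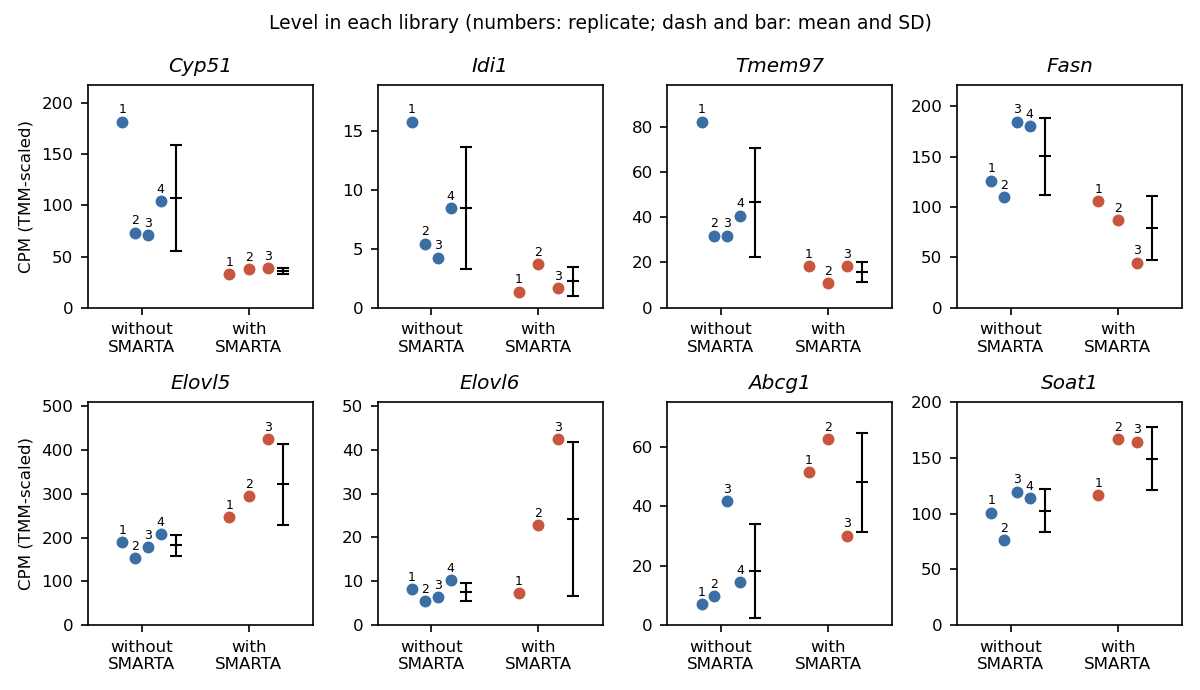
CPM (scaled by TMM) of 8 genes in each library, blue without and red with SMARTA; numbers are replicates, and the dash and bar give mean and SD (n = 4 and 3). Cyp51, Idi1, Tmem97, Fasn and Elovl5 have no overlap between groups, while Elovl6, Abcg1 and Soat1 overlap in part.

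Genes of fatty acid synthesis lay on both sides of 0. Fasn, the fatty acid synthase on chromosome 11 from 120805846 to 120824547, was at 126.2, 109.5, 184.5 and 180.2 CPM without and at 106.0, 87.2 and 44.6 CPM with SMARTA. The groups were separate, but by only a few CPM between replicate 2 without and replicate 1 with SMARTA (log2 −0.92 ± 0.33; edgeR adjusted p = 0.179). Without that replicate 1 the log2 value was −1.19. Elovl5, which lengthens polyunsaturated fatty acids, lies on chromosome 9 from 77917364 to 77984519. It was at 190.2, 152.6, 178.0 and 208.3 CPM without and at 246.4, 294.9 and 425.6 CPM with SMARTA. Every library with SMARTA was higher (0.82 ± 0.22; 182.3 ± 23.4 against 322.3 ± 92.7 CPM; edgeR adjusted p = 0.0854). Without replicate 1 with SMARTA, the library with erythroid transcripts, the log2 value was 0.96 and passed (edgeR adjusted p = 0.0342).

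Elovl6, which lengthens saturated and monounsaturated fatty acids, lies on chromosome 3 from 129532355 to 129638495. It was at 8.10, 5.46, 6.28 and 10.2 CPM without and at 7.27, 22.8 and 42.5 CPM with SMARTA. Replicates 2 and 3 with SMARTA were higher than all others and replicate 1 lay within the range without SMARTA (1.69 ± 0.53; edgeR adjusted p = 0.128). Without that replicate the log2 value was 2.09 (edgeR adjusted p = 0.019), and without replicate 3 with SMARTA it was 1.00 (edgeR adjusted p between 0.019 and 0.393 over the 7 fits). Elovl5 and Elovl6 were both called in only 1 of the 7 fits that leave out a library.

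Acly, which supplies cytosolic acetyl-CoA to both pathways, had the highest level per exon length of all 37 genes, at 87.6 CPM per kilobase without and 99.1 with SMARTA. Its log2 fold change was 0.18 ± 0.19. Acaca, the acetyl-CoA carboxylase of the committed step, was at 8.01 to 13.6 CPM without and 7.71 to 11.3 CPM with SMARTA (−0.40 ± 0.31; edgeR adjusted p = 0.561). The desaturase gene Fads1 was at 14.2 ± 1.49 and 13.8 ± 4.06 CPM. Fads2, its neighbour on chromosome 19, had counts of 10, 20, 0 and 0 without and 41, 0 and 0 with SMARTA and was not tested.

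Of the fatty acid synthesis genes tested, the stearoyl-CoA desaturase gene Scd1 had the largest standard error. Scd1 was at 2.69, 10.6, 43.8 and 29.1 CPM without and at 63.3, 16.9 and 6.79 CPM with SMARTA, with wide overlap (log2 0.43 ± 0.93; edgeR adjusted p = 0.861). Its log2 value ran from −0.85 without replicate 1 with SMARTA to 1.04 without replicate 3 lacking SMARTA. The same libraries held adipocyte transcripts. Adipoq, the adipocyte hormone adiponectin, was at 0.18, 2.76, 33.5 and 8.33 CPM without and at 30.9, 5.52 and 3.76 CPM with SMARTA. The 5 adipocyte genes, none of them at 0 in all libraries, summed to 4.45 to 149.6 CPM without and 17.1 to 167.6 CPM with SMARTA. Replicate 3 without and replicate 1 with SMARTA were the highest in both, and replicate 1 without SMARTA the lowest. Their part in the level of Scd1 was not tested. Scd2, the desaturase isoform with the higher level here, was at 123.6, 88.3, 220.0 and 131.3 CPM without and at 90.8, 213.6 and 125.6 CPM with SMARTA (0.03 ± 0.37; edgeR adjusted p = 0.982). Of the libraries with most adipocyte transcripts, Scd2 was the highest of all 7 in replicate 3 without SMARTA and near its lowest in replicate 1 with SMARTA. Reads that match both paralogs were left out by the counting, so their levels are uncertain.

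The genes of efflux and storage had higher means with SMARTA, and all overlapped between groups. Without replicate 3 lacking SMARTA their median log2 fold change was 1.21 in place of 0.59. Abcg1, an exporter of cholesterol to lipoproteins, was at 6.99, 9.66, 41.7 and 14.5 CPM without and at 51.5, 62.7 and 30.1 CPM with SMARTA. Only replicate 3 without SMARTA reached into the other group (log2 1.40 ± 0.59; edgeR adjusted p = 0.249). Without that library the log2 value was 2.21, and no fit that left out a library called it (edgeR adjusted p from 0.0597 to 0.509). Soat1, which esterifies cholesterol for storage, was at 100.9, 76.5, 119.9 and 114.0 CPM without and at 116.6, 167.2 and 164.8 CPM with SMARTA (0.54 ± 0.22; edgeR adjusted p = 0.237). Replicate 1 with SMARTA lay inside the range without SMARTA.

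Abca1, the exporter to lipid-poor apolipoproteins, was hardly present: 0.53, 0.83, 3.45 and 0.65 CPM without and 2.01, 4.31 and 0.09 CPM with SMARTA, from 3 to 179 counts a library. Its log2 value of 0.65 ± 1.07 (edgeR adjusted p = 0.81) became −0.37 without replicate 2 with SMARTA. Nr1h2, the liver X receptor of most cells, was at 76.8, 154.9, 246.1 and 154.8 CPM without and at 306.0, 220.4 and 124.1 CPM with SMARTA (0.46 ± 0.41; edgeR adjusted p = 0.62). The log2 value was 0.13 without replicate 1 with SMARTA. All 4 genes were highest in replicate 3 of the libraries without SMARTA. That library also held the highest sum of 10 macrophage and monocyte genes in its group, 183.1 CPM against 83.1 to 147.5 in its group and 197.2, 33.8 and 35.8 CPM with SMARTA. The adipocyte sum was 149.6 CPM there. What part macrophage or adipocyte transcripts have in these values was not tested.

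None of the regulators had an unadjusted p under 0.05. Srebf2 was at 207.7, 286.1, 250.3 and 285.1 CPM without and at 356.3, 250 and 161.3 CPM with SMARTA, with means of 257.3 and 255.9 (log2 −0.01 ± 0.27; edgeR adjusted p = 0.993). Replicate 1 with SMARTA lay above, replicate 3 below and replicate 2 inside the range without SMARTA. Without replicate 1 with SMARTA the log2 value was −0.33. Srebf1 was at 44.0, 74.2, 117.9 and 75.3 CPM without and at 148.4, 136.5 and 61.4 CPM with SMARTA (0.57 ± 0.39; edgeR adjusted p = 0.495). Per kilobase of exon Srebf2 was the higher of the pair, at 35.8 against 13.8 CPM per kilobase without SMARTA. Insig1, itself a target of SREBP, was at 2.80, 2.83, 2.44 and 2.51 CPM without and at 4.39, 2.39 and 0.91 CPM with SMARTA (−0.04 ± 0.52; edgeR adjusted p = 0.979). The log2 value was −0.68 without replicate 1 with SMARTA. It was thus even across the libraries without SMARTA and did not share the high replicate 1 of the enzymes. Insig2 was the regulator with separate groups, 50.9 to 58.9 CPM without and 59.5 to 86.7 CPM with SMARTA (0.37 ± 0.20; edgeR adjusted p = 0.384). Scap was at 41.1 ± 8.30 and 33.6 ± 14.8 CPM (−0.29 ± 0.34, and −0.62 without replicate 1 with SMARTA).

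The contrast between roles was taken within each library as the mean log2 CPM of one role minus that of another. Cholesterol synthesis minus efflux and storage was 2.14, 0.73, −0.68 and 0.82 without and −0.65, −1.15 and 0.66 with SMARTA. The position of 0 depends on which genes are in a role and on their lengths, so only the order of the libraries is informative, and the groups overlapped. Cholesterol minus fatty acid synthesis was 0.52, −0.31, −1.06 and −0.70 without and −1.01, −1.18 and −0.86 with SMARTA, also with overlap.

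Another 55 genes of these pathways were examined, of which 52 were tested. Of these 1 changed, beside 3.15% of all genes. It was Rnf145, a ubiquitin ligase of the endoplasmic reticulum that takes part in sterol feedback, and none was called lower. Rnf145 lies on chromosome 11 from 44518964 to 44565520 and was at 35.1, 41.8, 51.6 and 36.8 CPM without and at 109.0, 80.6 and 117.6 CPM with SMARTA. Each library with SMARTA was higher than all others (log2 1.31 ± 0.22, SE; edgeR adjusted p = 0.0259). Of the 7 fits that leave out a library 2 called it, those without replicate 2 lacking SMARTA and replicate 1 with SMARTA (edgeR adjusted p = 0.0463 and 0.0253), and the log2 value stayed between 1.17 and 1.46. Adjusted p in the others reached 0.0981.

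Of 9 uptake and transport genes none passed. Npc2, which moves cholesterol out of lysosomes, was at 249.2, 282.9, 262.3 and 227.1 CPM without and at 411.6, 377.2 and 509.8 CPM with SMARTA (0.76 ± 0.17; edgeR adjusted p = 0.0538). It passed without replicate 1 with SMARTA (edgeR adjusted p = 0.0452). Its partner Npc1 and the sterol transfer gene Gramd1a, named after their values were seen, had log2 values of 0.77 and 0.96, also with separate groups.

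Of 8 further cholesterol synthesis genes none passed. Of 15 further fatty acid synthesis genes tested none passed. Hsd17b12, of the elongation cycle, had the smallest p, with 117.8 ± 27.8 and 69.3 ± 4.20 CPM (−0.77 ± 0.23; edgeR adjusted p = 0.109). Of 9 tested genes of fatty acid oxidation none passed, 7 were positive and 3 had separate groups, all higher with SMARTA, beside 19.2% of all genes with separate groups in either direction. Cpt1a, which admits fatty acids to mitochondria, was at 99.4, 95.5, 138.2 and 116.4 CPM without and at 186.8, 153.8 and 239.7 CPM with SMARTA (0.78 ± 0.22; edgeR adjusted p = 0.0923).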

How the data were processed

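RNA-seq counts of 7 libraries were used. Per the labels' protocols, RNA of sorted cells was amplified (SMART-seq V4, 12 cycles) and sequenced from both ends to 50 bases. The tools were featureCounts 1.6.2 and STAR 2.6.0c with build GRCm38.p6, per the submitters' processing notes. Pairs were assigned to gene names on GENCODE M17 exons, ignoring strand, per the file headers. The deposited values are raw counts. Reads that match several places or genes are left out by default. Exons shared with another gene made up 26.7% of Fdps, 18.3% of Fdft1, 13.2% of Scap, 12.1% of Hmgcs1 and 9.21% of Idi1, so these levels are uncertain.

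Groups came from the titles. In R 4.3.3, edgeR 4.0.16 kept genes by filterByExpr (minimum count 10, minimum total 15), scaled by TMM and compared 4 with 3 libraries by a robust two-sided quasi-likelihood test with no covariate. P-values were adjusted by Benjamini-Hochberg over 15896 genes. CPM of single genes are TMM-scaled, sums are per library total, and log2 CPM has a prior count of 2. Each standard error is the absolute fold change (log2) divided by the root of F. The common dispersion was 0.28. The fit was tested on simulated data with large changes and a smaller dispersion than that of these libraries, so its power here was not measured. Alternatives used limma 3.58.1 and DESeq2 1.42.0. Pairs of libraries of a group differed by 97.2 to 461 chi-square per degree of freedom, so none was a copy.

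Members and lists were chosen with earlier results of these data known. Full values are given for members with an unadjusted p under 0.05 and for 10 set genes, and for called genes and the smallest p of each further list. Others are named after their values were seen. Some genes of the further lists are not reported here by name.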

Additional observations from a re-analysis of the deposited data

Results flagged for a closer look

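Among the 4 libraries without SMARTA, 4 of the 36 tested members (11.1%) had a library far from the other 3 by Dixon's ratio, above its 95% critical value. Chance alone does this in about 1 in 20 groups, and genes that vary together are not independent. In 3 of them the high library was replicate 1: Acat2 at 60.4 CPM, Nsdhl at 47.8 CPM and Ebp at 132.2 CPM. These are all cholesterol synthesis genes. The fourth was Abca1, at 3.45 CPM in replicate 3. Groups of 3 libraries were not examined in this way.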

How the results depend on the processing

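Among all genes 500 were called, against 842 with CPM of at least 5 in 3 libraries, 1741 by DESeq2 and 1257 with both replicate 2 lacking SMARTA and replicate 1 with SMARTA left out, an alternative chosen after seeing the data. With 1 library left out the count ran from 17 (without replicate 4 lacking SMARTA) to 907 (without replicate 1 with SMARTA). No member was called lower, against 1 (Cyp51) with library totals, with no low-count filter and with both libraries left out, 2 (Cyp51 and Tmem97) with the CPM minimum, 3 by DESeq2, and 0 to 0 with 1 library left out. No member was called higher, against 2 (Elovl5 and Elovl6) by DESeq2, 2 with both libraries left out, and 0 to 2 with 1 left out. The median log2 fold change of all tested members was −0.04, against −0.24 with the CPM minimum, −0.38 with both libraries left out and −0.3812 to −0.0199 with 1 left out. Fewer genes tested or fewer samples are part of some of these settings, and the cause was otherwise not tested. No named gene that was called reversed. Same-numbered libraries were not more alike than others: their correlations were −0.14, 0.03 and −0.27, against −0.09 to 0.25 for the other pairs. With the number as a replicate block 0 genes were called. Such a fit leaves little to estimate the spread from, so it cannot decide whether the numbers pair the samples.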
